A study of Tupaia belangeri chinensis with 36 samples.

Results

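The miR-101 rows of the miRNA table were examined in testis and epididymis of the Chinese tree shrew (Tupaia belangeri chinensis), a small mammal related to primates. The members were all rows whose name starts with mmu-miR-101, which were 5 of 1210 rows: mmu-miR-101a-3p, mmu-miR-101c, mmu-miR-101b-3p, mmu-miR-101a-5p and mmu-miR-101b-5p. Of these, mmu-miR-101a-3p and mmu-miR-101c were chosen by their level, as the 2 mouse-named rows with the highest mean share of the miRNA counts, so their ranks and mean levels are given as a description with no test. Differences between seasons and tissues, which the choice did not use, were tested. The row names are those of mouse miRNAs, and 491 of the 1210 rows carried a mouse name.

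Small RNA was sequenced as single reads of 50 nt from the testis (TESTIS), the head of the epididymis (CAPUT), which receives sperm from the testis, and its tail (CAUDA), which stores them. The 6 groups were TESTIS-R, TESTIS-NR, CAPUT-R, CAPUT-NR, CAUDA-R and CAUDA-NR, where R is the reproductive season, collected in April 2024, and NR the non-reproductive season, collected in December 2023. All animals were sexually mature males of 1.5 to 2 years, and the labels name no strain, allele or treatment. Each group had 3 columns, labelled as biological replicates. In TESTIS-NR and CAPUT-NR the column of replicate 2 equalled the mean of the other 2 columns within 0.5 counts at 100% of the rows. These columns were left out, so 16 measured libraries remained, with n = 2 in TESTIS-NR and CAPUT-NR and n = 3 in the other groups. Each season was collected at 1 time, so season and collection date cannot be told apart.

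A miRNA is cut from a hairpin precursor, and the strand that is kept (here named 3p or 5p) is loaded into an Argonaute protein and guides it to messenger RNAs that pair with the seed near its 5′ end. The other strand is usually degraded. In mouse, miR-101a and miR-101b come from separate genes and have nearly the same mature sequence. miR-101 is best known in human and mouse for repressing Ezh2, the methyltransferase of Polycomb repressive complex 2, and it has been studied mainly as an inhibitor of tumour growth. A tree shrew reference annotation (RefSeq, TupChi_1.0) lists 177 miRNA genes, 1 of which is named MIR101.

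The libraries held 2166152 to 14756858 miRNA counts, and the 10 most abundant rows took 67.1% to 75.1% of them. The labelled tissues were set against marker miRNAs. The 5 epithelial miRNAs (miR-200 family and miR-141) summed to 201 to 3300 counts per 1000000 miRNA counts (CPM) in testis, 87098 to 116976 CPM in caput and 61476 to 94722 CPM in cauda. The 3 germ and ciliated cell miRNAs (miR-34b, miR-34c and miR-449a) summed to 5610 to 7808 CPM in TESTIS-R. They summed to 340 CPM in TESTIS-NR 1 and 4592 CPM in TESTIS-NR 3, so the non-reproductive testis libraries stood apart from each other. The 2 smooth muscle miRNAs (miR-143 and miR-145a) summed to 5072 to 11948 CPM in testis, 5018 to 10694 CPM in caput and 22258 to 38298 CPM in cauda. In every group 0 members of these 3 lists were at 0 in all libraries, but mmu-miR-449a-5p reached down to 0 CPM in CAUDA-NR (median 0.704 CPM). In bulk tissue, fewer cells of a type and less RNA per cell cannot be told apart.

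mmu-miR-101a-3p was the most abundant row in all 5 testis libraries and stood at or near the top in the epididymis. It averaged 199489 ± 13748 CPM in testis (SD, n = 5), 115170 ± 17465 CPM in caput (n = 5) and 134032 ± 22233 CPM in cauda (n = 6). It ranked first of all rows in 10 of 16 libraries, second in 5 and behind 3 other rows in 1. In testis the level was 194996, 198224 and 189046 CPM in TESTIS-R 1, 2 and 3, against 191873 and 223305 CPM in TESTIS-NR 1 and 3. All 5 testis libraries lay above all 11 epididymal libraries, and TESTIS-NR 3 was the highest of the 16.

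In caput the level was 112228, 86110 and 121772 CPM in CAPUT-R 1, 2 and 3, against 128475 and 127266 CPM in CAPUT-NR 1 and 3. Both CAPUT-NR libraries were above the 3 CAPUT-R libraries, which can arise by chance with so few libraries. CAPUT-R 2 was the lowest of all. In cauda the level was 132951, 105641 and 134792 CPM in CAUDA-R 1, 2 and 3, against 137780, 172380 and 120650 CPM in CAUDA-NR 1, 2 and 3. The cauda groups overlapped, and CAUDA-NR 2 was well above the other 5. Counting error was small beside this spread: the exact (Clopper-Pearson) 95% interval in CAPUT-R 2 ran from 85919 to 86302 CPM. The reads carry no stated molecular identifiers, so intervals and floors cover counting error only.

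Ordered by group mean, mmu-miR-101a-3p was at 207589 ± 22226 CPM in TESTIS-NR (n = 2), 194089 ± 4655 CPM in TESTIS-R (n = 3) and 143603 ± 26352 CPM in CAUDA-NR (n = 3). Next came 127870 ± 855 CPM in CAPUT-NR (n = 2), 124461 ± 16325 CPM in CAUDA-R (n = 3) and 106704 ± 18462 CPM in CAPUT-R (n = 3). TESTIS-R and CAUDA-NR were neighbours in this order whose libraries did not overlap. All other neighbours overlapped, so their order is not resolved by these libraries.

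**Figure D1:**
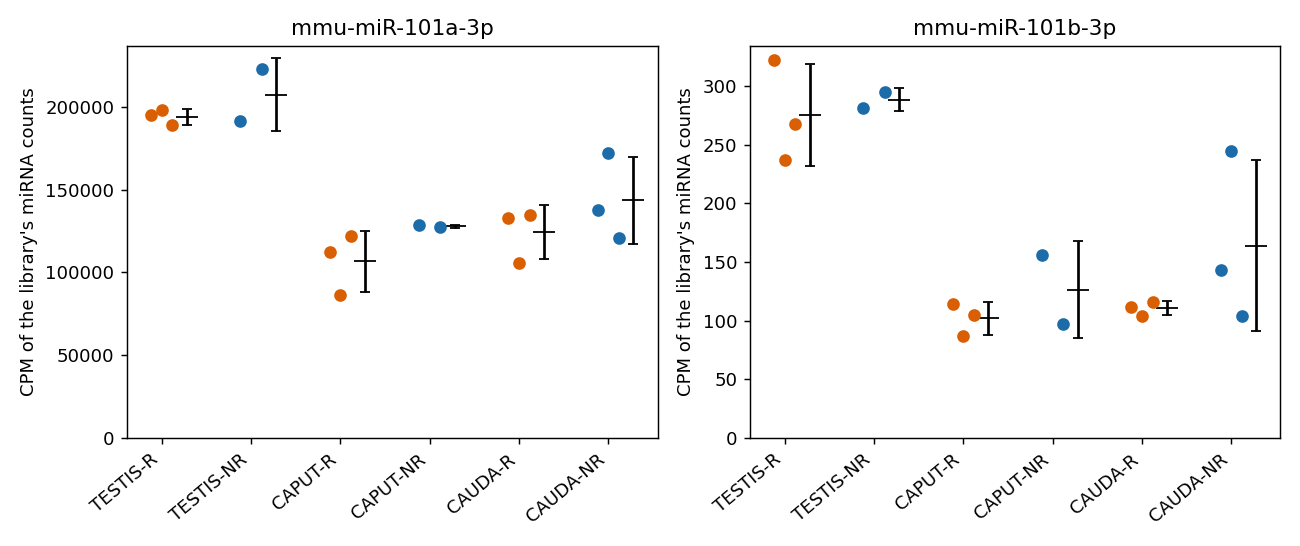
Level of mmu-miR-101a-3p (left) and mmu-miR-101b-3p (right) in each of 16 measured libraries, in CPM of the library's miRNA counts. Points are libraries, horizontal lines are group means and bars are ± 1 SD. The 5 testis libraries lie between 189046 and 223305 CPM for mmu-miR-101a-3p, above the 11 epididymal libraries.

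Where another row outranked mmu-miR-101a-3p, it was most often mmu-miR-21a-5p, an abundant miRNA of many tissues that is induced in injury and growth. mmu-miR-21a-5p stood at 147516, 206053 and 147149 CPM in CAUDA-R 1, 2 and 3 and at 145405 CPM in CAUDA-NR 3, and it was first in these 4 libraries. It averaged 166906 CPM in CAUDA-R and 128898 CPM in CAUDA-NR, so over the cauda libraries as a whole it was the more abundant of the 2. In CAPUT-R 1 an entry without a mouse name was first, at 128296 CPM. In CAPUT-R 2 mmu-miR-21a-5p (115079 CPM), mmu-miR-29c-3p (96665 CPM) and mmu-miR-200b-3p (90684 CPM) were all above the 86110 CPM of mmu-miR-101a-3p. mmu-miR-101c held the next rank after mmu-miR-101a-3p in all 16 libraries.

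mmu-miR-101c carried almost the same counts as mmu-miR-101a-3p in every library. TESTIS-R 1 had 535585 counts in the mmu-miR-101a-3p row and 535489 in the mmu-miR-101c row, and CAUDA-NR 2 had 2203331 and 2203122. Over the 16 libraries mmu-miR-101c was lower by 24 to 209 counts, which is 0.00586% to 0.0199% of the mmu-miR-101a-3p row. In each library this gap was inside the counting interval of either row. The 2 rows could therefore not be treated as separate measurements, and which miR-101 gene the reads came from cannot be told apart. Among 281 rows with a mean of at least 100 counts, 3 other pairs stayed within 1% of each other in all 16 libraries: mmu-miR-199a-3p and mmu-miR-199b-3p, mmu-miR-374b-5p and mmu-miR-374c-5p, and mmu-miR-486a-5p and mmu-miR-486b-5p. Their means were 5570, 171 and 79.9 CPM, far below the 148593 CPM of mmu-miR-101a-3p over the 16 libraries.

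Counted in both rows, miR-101 made up 17.2% (CAPUT-R 2) to 44.7% (TESTIS-NR 3) of a library's miRNA counts. Counted once, with the mmu-miR-101c row taken out of the total, mmu-miR-101a-3p made up 24.9 ± 2.19% of the counts in testis (SD, n = 5), 13.1 ± 2.19% in caput (n = 5) and 15.5 ± 3.01% in cauda (n = 6). The libraries ran from 23.3% to 28.7% in testis, from 9.42% to 14.7% in caput and from 11.8% to 20.8% in cauda. Because the 2 rows are nearly equal, counting once lowers the miR-101 share below that of both rows in every library. It cannot change the order of the libraries. The share of the mmu-miR-101a-3p row alone rises, from a mean of 19.9% to 24.9% in testis.

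**Figure D2:**
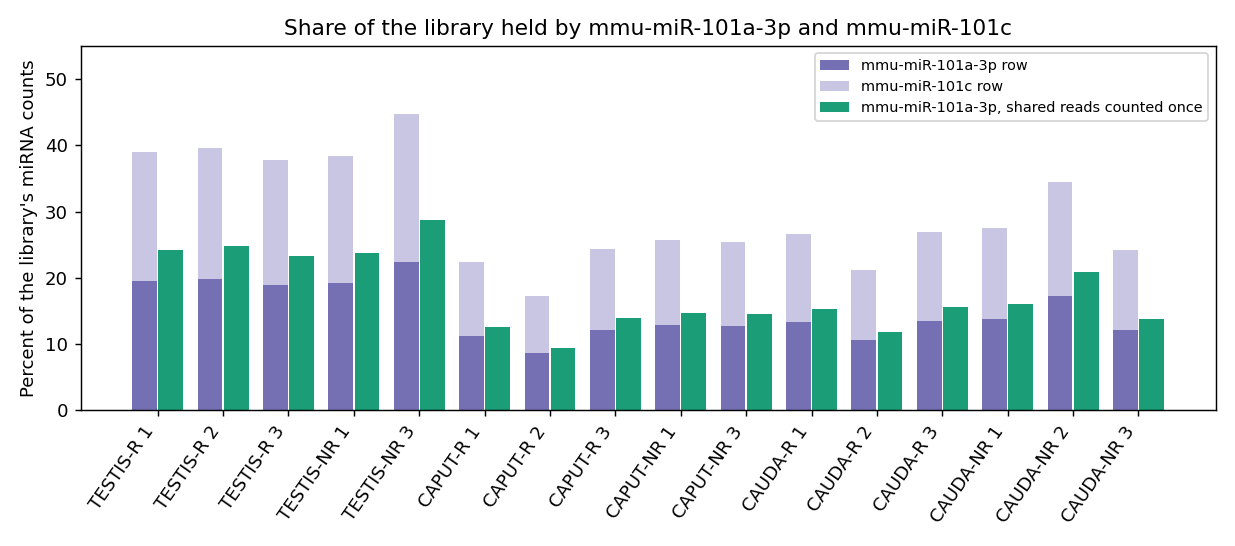
Percent of each library's miRNA counts held by the mmu-miR-101a-3p row and, stacked on it, the mmu-miR-101c row, beside the percent held by mmu-miR-101a-3p when the shared reads are counted once. Both rows together hold 17.2% to 44.7%, and the single count holds 9.42% to 28.7%.

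Because the pair is so large, every other miRNA's share depends on whether it is in the total. Without both rows, the share of each other row was multiplied by 1.67 ± 0.0805 in testis (SD, n = 5), by 1.30 ± 0.0567 in caput (n = 5) and by 1.37 ± 0.0868 in cauda (n = 6). With the shared reads counted once, the mean factors were 1.25, 1.13 and 1.16 in testis, caput and cauda. Leaving both rows out thus moved every other row by the same 0.36 (log2) in testis minus caput, which is 1.28-fold, and by 0.28, or 1.22-fold, in testis minus cauda. For caput minus cauda the shift was -0.07, and between the seasons (R minus NR) it was -0.07 in testis, -0.08 in caput and -0.08 in cauda. The shift was thus larger in the 2 comparisons with testis than in the other 4.

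The 5 most abundant other mouse-named rows show the size of this shift. mmu-miR-29c-3p, known for repressing collagens and DNA methyltransferases, had 66413 ± 4319 CPM in TESTIS-R and 94058 ± 2466 CPM in CAPUT-R (SD, n = 3 each) when both miR-101 rows were in the total. Without them it had 108531 ± 6552 CPM in TESTIS-R and 119673 ± 3762 CPM in CAPUT-R, and the gap between the groups narrowed. mmu-miR-125b-5p, a relative of the worm miRNA lin-4, had 51520 ± 433 CPM in TESTIS-R and 80948 ± 1386 CPM in CAPUT-R with both rows, and 84216 ± 1429 CPM in TESTIS-R and 103020 ± 3767 CPM in CAPUT-R without them. Over the 16 libraries mmu-miR-21a-5p averaged 94883 CPM with the pair in the total and 131977 CPM without it. The same 2 means were 43971 and 58601 CPM for mmu-miR-200b-3p and 29320 and 41880 CPM for mmu-miR-29a-3p. The 10 most abundant rows took 59.8% to 71.5% of the counts without the pair.

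The split of other miRNAs called higher or lower by library total shifted when the pair was removed. With libraries scaled to their totals in edgeR, 232 other rows differed between testis and caput, 151 higher and 81 lower in testis. Without the pair 234 differed, 174 higher and 60 lower in testis, and 211 rows were called both times. For testis minus cauda 262 rows were called with the pair, 144 higher and 118 lower, and 278 without it, 170 higher and 108 lower, with 252 shared. For caput minus cauda 125 rows were called with the pair, 41 higher and 84 lower, and 142 without it, 42 higher and 100 lower, with all 125 shared. Between the cauda seasons 11 rows were called with the pair, 8 higher and 3 lower in R, and 5 without it, all higher and all among the 11. In testis and caput 0 were called between the seasons with or without the pair. Under TMM scaling, which sets libraries by the bulk of the rows, testis minus caput gave 235 calls with the pair and 237 without it, 229 of them shared. Testis minus cauda gave 257 with it and 241 without it, 241 of them shared, and the cauda seasons gave the same 14 both times. With all miR-101 rows left out, however, the cauda seasons gave 4 calls.

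The seasons were compared within each tissue with edgeR's quasi-likelihood test (TMM scaling, Benjamini-Hochberg adjustment over all miRNAs tested, threshold 0.05). Of the 5 members 4 passed the filter on low counts in each comparison, and mmu-miR-101b-5p did not. In all 3 tissues 0 of these 4 members passed the test. In testis 0 of 496 miRNAs were called (0%); 36 had an unadjusted p under 0.05, and DESeq2 called 24. In caput 0 of 534 were called (0%); 24 had an unadjusted p under 0.05, and DESeq2 called 15. In cauda 14 of 455 were called (3.08%), 10 higher and 4 lower in R, and DESeq2 called 53.

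The fitted season differences (log2, R minus NR) of mmu-miR-101a-3p were negative in each tissue and smaller than their standard errors. They were -0.13 in testis (SE 0.14, 95% interval -0.48 to 0.22, edgeR adjusted p = 0.942), -0.28 in caput (SE 0.34, -1.17 to 0.61, adjusted p = 0.958) and -0.20 in cauda (SE 0.22, -0.75 to 0.35, adjusted p = 0.637). In 2 of these, 1 library set the sign: without TESTIS-NR 3 the testis value was 0.050, and without CAUDA-NR 2 the cauda value was 0.067. The caput value was -0.042 without CAPUT-R 2 and -0.51 without CAPUT-R 1. CAPUT-R 2 also stood apart in the 2 endothelial miRNAs (miR-126a-3p and miR-126a-5p), which summed to 41447 CPM there, against 5349 and 12931 CPM in the other CAPUT-R libraries and 11942 to 16432 CPM in CAPUT-NR; their part in this was not tested. Without TESTIS-NR 1, the library low in germ cell miRNAs, the testis value was -0.40 (SE 0.10, adjusted p = 0.469). The intervals leave room for season changes of this size in either direction, and the season change of mmu-miR-101a-3p did not pass the test of a difference between tissues (log2 -0.12, SE 0.47, testis minus caput, adjusted p = 1.00; -0.11, SE 0.32, testis minus cauda, adjusted p = 1.00; -0.09, SE 0.41, caput minus cauda, adjusted p = 1.00). In these tests 0 of 677, 0 of 713 and 0 of 620 miRNAs were called (0% each); 27, 62 and 35 had an unadjusted p under 0.05, and DESeq2 called 12, 21 and 15.

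mmu-miR-101b-3p, the kept strand of the miR-101b gene in mouse, was counted far below the pair but in every library. How reads that match both it and the pair were counted is not stated. mmu-miR-101b-3p had 322, 236 and 267 CPM in TESTIS-R 1, 2 and 3, against 281 and 295 CPM in TESTIS-NR 1 and 3. It had 115, 86.8 and 105 CPM in CAPUT-R 1, 2 and 3, against 156 and 97.3 CPM in CAPUT-NR 1 and 3. It had 111, 104 and 116 CPM in CAUDA-R 1, 2 and 3, against 143, 245 and 104 CPM in CAUDA-NR 1, 2 and 3. The seasons overlapped in each tissue, all 5 testis libraries lay above every epididymal library except CAUDA-NR 2, and CAUDA-NR 2 was high for mmu-miR-101a-3p as well. The row held 579 to 3128 counts per library and ranked between 95 and 148. Its fitted season differences were -0.09 in testis (SE 0.34, edgeR adjusted p = 0.999), -0.33 in caput (SE 0.43, adjusted p = 0.968) and -0.58 in cauda (SE 0.40, adjusted p = 0.448). The cauda value was -0.029 without CAUDA-NR 2 and -0.88 without CAUDA-NR 3.

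Both 5p rows, the strands that are usually degraded, were close to the detection limit. mmu-miR-101a-5p had 198 counts over the 16 libraries, 0 to 52 per library, with the highest level (5.83 CPM) in TESTIS-R 2. It was at 0 in TESTIS-R 3 and TESTIS-NR 3, which allows up to 1.38 and 0.845 CPM at a floor of 3 counts per library. Per 1000000 mmu-miR-101a-3p counts there were 0 to 29.4 mmu-miR-101a-5p counts, with a mean of 10.4. The fitted season and tissue differences of mmu-miR-101a-5p had standard errors of 0.68 to 2.54 on the log2 scale, and 0 of them passed the test. mmu-miR-101b-5p had 7 counts in all and was at 0 in 12 of 16 libraries, including all 5 of testis, and was not tested. The miR-101 counts of these tissues were thus almost entirely 3p counts.

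Tissues were compared with season as a covariate in the same kind of edgeR fit. Of the 4 members tested, 0 differed between testis and caput, where 235 of 677 miRNAs were called (34.7%). Between testis and cauda 1 of 4 was called, mmu-miR-101b-3p, and 257 of 713 miRNAs overall (36%). Between caput and cauda 0 of 4 were called, and 132 of 620 overall (21.3%). The members' counts are therefore not above the share of all miRNAs. They say little, since mmu-miR-101a-3p and mmu-miR-101c are not separate measurements and mmu-miR-101a-5p held few counts. The levels that chose mmu-miR-101a-3p stand on the scale of library totals.

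mmu-miR-101a-3p was higher in testis on the scale of library totals and did not pass the test under TMM. The TMM differences (log2) were 0.15 for testis minus caput (SE 0.21, 95% interval -0.33 to 0.63, edgeR adjusted p = 0.602), 0.37 for testis minus cauda (SE 0.15, 0.031 to 0.71, adjusted p = 0.0777) and 0.23 for caput minus cauda (SE 0.19, -0.21 to 0.66, adjusted p = 0.472). Scaled by library total, they were 0.80 (SE 0.13, adjusted p = 0.00165), 0.59 (SE 0.12, adjusted p = 0.00344) and -0.20 (SE 0.13, adjusted p = 0.305), so the first 2 passed and the sign of the last turned. With DESeq2 size factors in edgeR the testis minus cauda difference was 0.53 (adjusted p = 0.0117). With mmu-miR-101c taken out of the table, the testis minus caput difference was -0.0022.

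A scaling moves all miRNAs of a comparison by about the same amount, so values relative to the median of all miRNAs hardly depend on it by construction. The median difference of all miRNAs for testis minus caput was 0.40 under TMM, 0.49 under DESeq2 size factors and 1.00 by library total. Relative to that median, mmu-miR-101a-3p was at -0.25, -0.24 and -0.20. For testis minus cauda it was at -0.10, -0.11 and -0.09 relative to medians of 0.47, 0.64 and 0.68. For caput minus cauda it was at 0.17, 0.18 and 0.14 relative to medians of 0.05, 0.06 and -0.34. The side of the median depended on which rows and libraries entered. With no filter on low counts mmu-miR-101a-3p lay above it for testis minus caput (0.35 against a median of 0.14) and for testis minus cauda (0.22 against 0.03). For testis minus cauda it was also above with a replicate block (0.47 against 0.14) and with all libraries in 1 fit (0.36 against 0.28). These values therefore do not place mmu-miR-101a-3p above or below the other miRNAs. The epithelial miRNAs, 201 to 3300 CPM in testis and at least 61476 CPM in each epididymal library, differ between the same tissues and enter the same totals; their part in this was not tested.

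**Figure D3:**
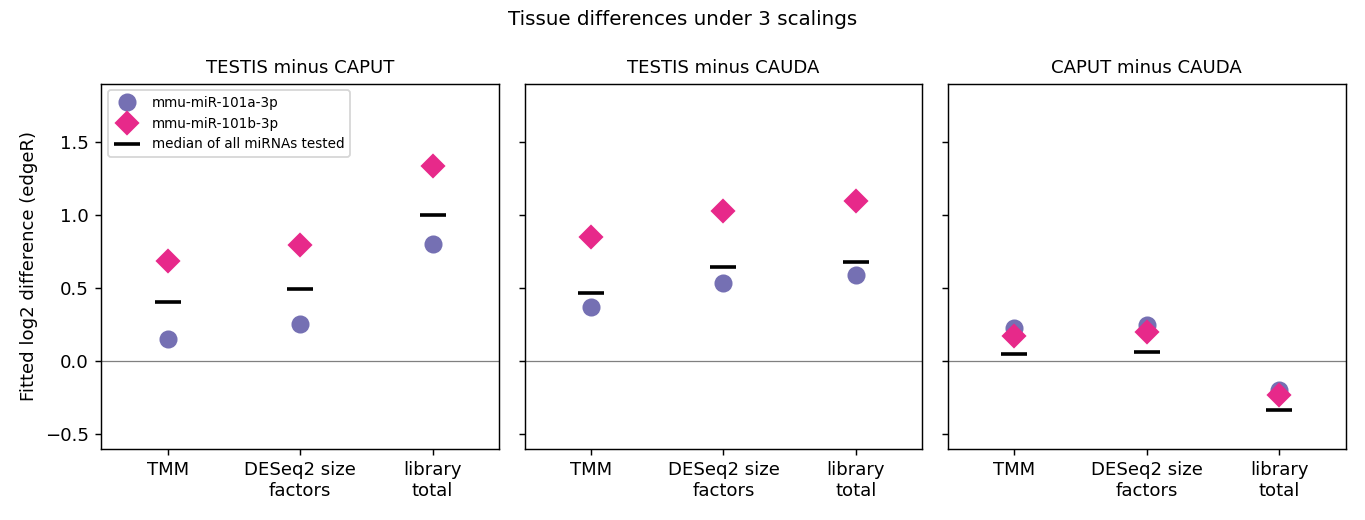
Fitted log2 differences between tissues (edgeR) of mmu-miR-101a-3p (circles), mmu-miR-101b-3p (diamonds) and the median of all miRNAs tested (bars) under TMM, DESeq2 size factors and library totals. All values move together with the scaling. In both comparisons with testis mmu-miR-101a-3p is drawn below the median and mmu-miR-101b-3p above it, but with no filter on low counts mmu-miR-101a-3p lies above it (0.35 against 0.14 and 0.22 against 0.03).

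Single libraries weighed on these values. Without CAPUT-R 1, whose TMM factor of 0.595 was the lowest of the 16 libraries, the testis minus caput difference of mmu-miR-101a-3p was 0.64 (SE 0.23, edgeR adjusted p = 0.0593). Without TESTIS-NR 1 it was 0.074 (adjusted p = 0.842). For testis minus cauda the difference was 0.18 without TESTIS-NR 1 (adjusted p = 0.421) and 0.33 without CAUDA-NR 2 (SE 0.11, adjusted p = 0.0404), where it passed.

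mmu-miR-101b-3p was higher in testis than in cauda (log2 difference 0.85, SE 0.27, edgeR adjusted p = 0.0333). Testis minus caput was 0.69 (SE 0.28, adjusted p = 0.0881) and caput minus cauda 0.17 (SE 0.29, adjusted p = 0.739). Testis minus cauda lost its call without 8 of the 11 libraries in turn, with adjusted p from 0.00515 to 0.138 over the 11, with mmu-miR-101c left out (0.80, adjusted p = 0.0596) and with no filter on low counts (0.70, adjusted p = 0.126). Testis minus caput gained one by library total (1.34, adjusted p = 0.00226) and with DESeq2 size factors (0.79, adjusted p = 0.0494). It also gained one with DESeq2 (0.79, adjusted p = 0.00907), with the averaged columns kept (0.69, adjusted p = 0.0205) and without 2 of the 10 libraries in turn. It stayed uncalled with mmu-miR-101c left out (0.53, adjusted p = 0.149), with no filter on low counts (0.86, adjusted p = 0.115) and with a replicate block (0.74, adjusted p = 0.0625). Relative to the median of all miRNAs, mmu-miR-101b-3p was 0.28 to 0.33 higher in testis minus caput and 0.38 to 0.42 higher in testis minus cauda over the 3 scalings.

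The ratio of mmu-miR-101b-3p to mmu-miR-101a-3p needs no scaling, since both are counted in the same library. Their mature sequences are nearly the same in mouse, and how reads that match several names were counted is not stated. Whether reads of mmu-miR-101a-3p enter the mmu-miR-101b-3p row was not tested. Per 1000 mmu-miR-101a-3p counts there were 1.41 ± 0.171 mmu-miR-101b-3p counts in testis (SD, n = 5), 0.973 ± 0.170 in caput (n = 5) and 1.00 ± 0.220 in cauda (n = 6). The libraries ran from 1.19 to 1.65 in testis, from 0.764 to 1.21 in caput and from 0.838 to 1.42 in cauda. Caput overlapped testis by 1 library, CAPUT-NR 1, and cauda overlapped it through CAUDA-NR 2 alone. The ratio was 1.46-fold higher in testis than in caput (log2 0.54, SE 0.14) and 1.42-fold higher in testis than in cauda (log2 0.51, SE 0.14). In two-sided exact permutation tests over libraries the p-values were 0.0159 and 0.0173, or 0.0260 each after adjustment over the 3 comparisons. Caput and cauda differed by -0.03 (SE 0.16, exact p = 0.887, adjusted p = 0.887). The ratio was taken up after its values had been seen, so these p-values describe the libraries and are not independent evidence. Without TESTIS-R 1 or without TESTIS-NR 1 both adjusted p-values were 0.0571, with log2 differences of 0.48 and 0.53 against caput and 0.45 and 0.49 against cauda.

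**Figure D4:**
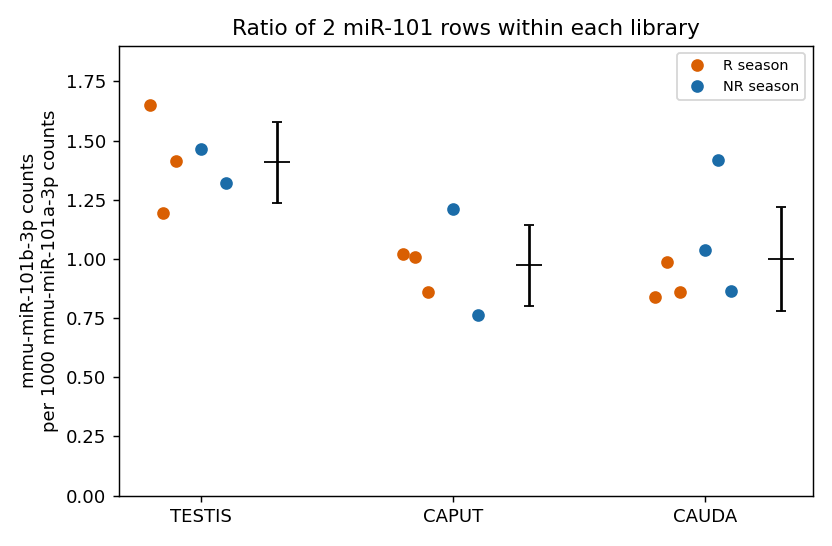
mmu-miR-101b-3p counts per 1000 mmu-miR-101a-3p counts in each library by tissue, with the season in colour and mean ± 1 SD beside the points. Testis libraries lie between 1.19 and 1.65, and 1 caput and 1 cauda library reach into that range.

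Rows whose pattern was most like that of mmu-miR-101a-3p were sought among 132 mouse-named rows with a mean of at least 100 CPM, by Pearson's r of log2(CPM + 1) over the 16 libraries, with the pair taken out of the other rows' totals. Most like were mmu-miR-101b-3p (r = 0.95, Spearman's rho = 0.93), mmu-miR-542-3p (r = 0.94, rho = 0.93) and mmu-miR-30d-3p (r = 0.89, rho = 0.79). Least like were mmu-miR-210-3p (r = -0.88, rho = -0.78), mmu-miR-200c-3p (r = -0.85, rho = -0.65) and mmu-miR-141-5p (r = -0.84, rho = -0.85). The median r of the 132 rows was -0.04, and 61 were positive. These points share libraries and tissues, and testis stands apart from epididymis in all of them. In mouse, mmu-miR-101b-3p has nearly the same sequence as mmu-miR-101a-3p. How reads that match both were counted is not stated, and the part of such reads in this r was not tested.

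Within the 11 epididymal libraries r was 0.85 for mmu-miR-101b-3p and 0.85 for mmu-miR-542-3p, and 0.64 for mmu-miR-30d-3p. For the least like rows it was -0.59 for mmu-miR-210-3p, -0.42 for mmu-miR-200c-3p and -0.64 for mmu-miR-141-5p, and 0 of these were among the 3 least like there. The median r of the 132 rows was 0.18 there. The rows were picked over all 16 libraries, which include these 11, so the epididymal values are a description and no separate check. The testis libraries are only 5, too few for a value of their own.

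**Figure D5:**
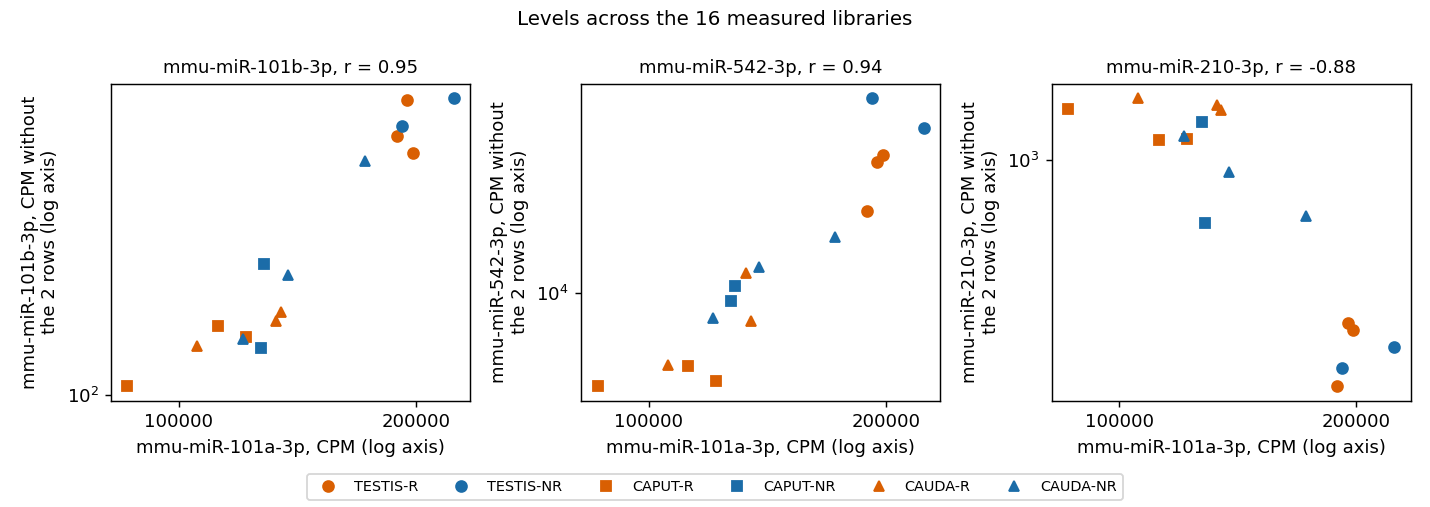
Level of mmu-miR-101b-3p, mmu-miR-542-3p and mmu-miR-210-3p (CPM without the mmu-miR-101a-3p and mmu-miR-101c rows, log axis) against the level of mmu-miR-101a-3p (CPM, log axis) in 16 libraries, with tissue as the symbol and season as the colour. The first 2 rise with mmu-miR-101a-3p across the libraries (r = 0.95 and 0.94), and mmu-miR-210-3p is lowest in testis (r = -0.88).

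mmu-miR-542-3p, whose gene lies in an X-linked miRNA cluster with miR-424 and miR-503 in mammals, was itself abundant. It had 17102, 17877 and 11891 CPM in TESTIS-R 1, 2 and 3, against 28647 and 20394 CPM in TESTIS-NR 1 and 3, and the seasons did not overlap. In caput it had 4364, 3961 and 3772 CPM in CAPUT-R 1, 2 and 3, against 7842 and 7002 CPM in CAPUT-NR 1 and 3, again without overlap. With so few libraries per group such a separation can arise by chance, and how many of all miRNAs separate this way was not counted. In cauda it had 8595, 4475 and 5876 CPM in CAUDA-R 1, 2 and 3, against 8870, 10152 and 6214 CPM in CAUDA-NR 1, 2 and 3. Its season differences were -0.67 in testis (SE 0.24, edgeR adjusted p = 0.598), -0.91 in caput (SE 0.28, adjusted p = 0.712) and -0.42 in cauda (SE 0.31, adjusted p = 0.465), none past the threshold. It was higher in testis than in caput (log2 1.24, SE 0.24, adjusted p = 0.00409) and than in cauda (log2 1.22, SE 0.26, adjusted p = 0.00408). mmu-miR-30d-3p, the rarer strand of a widespread miRNA, was at 125 to 170 CPM in testis, 74.4 to 111 CPM in caput and 64.4 to 106 CPM in cauda. Its difference was -0.03 for testis minus caput (adjusted p = 0.943) and 0.65 for testis minus cauda (SE 0.23, adjusted p = 0.0495).

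mmu-miR-210-3p, the miRNA best known for its induction by low oxygen, ran the other way. It had 90.5 to 152 CPM in the 5 testis libraries and 405 to 1335 CPM in the 11 epididymal ones, and it was lower in testis than in caput (log2 -3.51, SE 0.31, edgeR adjusted p = 0.000172) and lower than in cauda (log2 -3.16, SE 0.30, adjusted p = 5.73e-05). mmu-miR-200c-3p and mmu-miR-141-5p belong to the epithelial miR-200 family and its cluster. mmu-miR-200c-3p was lower in testis (log2 -6.86, SE 0.68, against caput and -6.22, SE 0.63, against cauda), and so was mmu-miR-141-5p (-5.40, SE 1.10, and -4.31, SE 1.00), all called by edgeR. These rows are in low numbers in testis, where the epithelial list summed to at most 3300 CPM.

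Other miRNAs reported to target Ezh2 were followed as a list of 10, all of them in the table. Between the seasons 0 were called in testis (8 tested), caput (10 tested) and cauda (10 tested), as for the miR-101 rows. Their median season differences (log2) were 0.19, 0.21 and -0.37, against 0.10, 0.10 and 0.05 over all miRNAs tested. The list summed to 4883 to 10490 CPM in testis, 9466 to 19911 CPM in caput and 18124 to 31050 CPM in cauda.

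For testis minus caput 5 of 10 fell, 1 rose and 4 did not pass, with a median of -1.31 against 0.40 over all miRNAs, of which 18.2% fell and 16.5% rose. For testis minus cauda 6 of 10 fell, 1 rose and 3 did not pass, with a median of -1.65 against 0.47 over all miRNAs, of which 18.1% fell and 18% rose. mmu-miR-26a-5p, known in mouse for repressing Ezh2 during muscle differentiation, was lower in testis than in caput (log2 -1.57, SE 0.31, edgeR adjusted p = 0.00417) and than in cauda (log2 -1.99, SE 0.26, adjusted p = 0.000249). Its level was 4993, 3797 and 5420 CPM in TESTIS-R 1, 2 and 3 and 7322 and 3289 CPM in TESTIS-NR 1 and 3, while every cauda library had at least 12964 CPM. mmu-miR-26b-5p (-1.74 and -2.04) and mmu-miR-138-5p (-5.98 and -5.13) fell in both comparisons as well. So did mmu-let-7a-5p (-1.02 and -0.89) and mmu-let-7b-5p (-1.80 and -1.63). mmu-miR-138-5p held 0 to 2 counts per testis library, under the floor of 3 counts, against 37 to 162 counts per epididymal library. The size of its fall is therefore poorly measured. mmu-miR-214-3p fell against cauda (-1.91). None of these rows changed direction by library total or with DESeq2 size factors, but mmu-let-7a-5p lost its calls by library total (-0.46, adjusted p = 0.234, and -0.69, adjusted p = 0.103), and its call against cauda also with DESeq2 size factors (-0.72, adjusted p = 0.0798). The exception was mmu-miR-217-5p, which was higher in testis by 2.81 against caput (SE 0.38, adjusted p = 0.000717) and by 2.57 against cauda (SE 0.33, adjusted p = 0.000249). It had 554, 381 and 426 CPM in TESTIS-R 1, 2 and 3 and 114 and 383 CPM in TESTIS-NR 1 and 3, against 20.7 to 64.0 CPM in the epididymal libraries.

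The miR-144 and miR-451 cluster of red blood cells was followed because miR-144-3p begins with nearly the same bases as miR-101. Its 3 rows summed to 10.1 to 22.6 CPM in testis, 7.59 to 139 CPM in caput and 27.3 to 54.4 CPM in cauda, the highest in CAPUT-R 2. Of the 3 rows 1 was called in each comparison with testis, mmu-miR-451a, which was lower in testis than in caput (log2 -2.34, SE 0.68, edgeR adjusted p = 0.0252) and than in cauda (log2 -2.10, SE 0.43, adjusted p = 0.00378). A count of 1 of 3 is near the share of all miRNAs called in these comparisons (34.7% and 36%), so it says nothing particular about the cluster. By library total the difference from caput was -1.91 (adjusted p = 0.0713). mmu-miR-144-3p itself was at 0 to 4.60 CPM in every library.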

How the data were processed

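The authors deposited a table of miRNA read counts with 18 small RNA columns and no normalization, and featureCounts and bedtools are named without role or version per the submitters' processing notes. No source used here names the aligner, genome build or annotation, or says how reads that match several names were counted. The near-equal rows mmu-miR-101a-3p and mmu-miR-101c both enter library totals. Gene, piRNA and cluster tables were not used here.

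Counts were divided by the column total of all 1210 rows (CPM), and the pair mmu-miR-101a-3p and mmu-miR-101c was also left out or counted once. Tests used the quasi-likelihood method of edgeR 4.0.16 (R 4.3.3) with TMM scaling and its default filter on low counts, and were tested on simulated data with known changes. DESeq2 1.42.0, other scalings, no filter and leaving out each library were alternatives. Ratios were compared with exact permutation tests. The members, lists and naming rule were chosen with earlier results of these data known. Named rows are the miR-101 rows, the 5 most abundant other mouse-named rows, the 3 rows most and least like mmu-miR-101a-3p, the list of Ezh2-targeting miRNAs and, of the miR-144 and miR-451 cluster, those called or closest to miR-101. A planned addition of rows by shared seed was not used here. The ratio test and the likeness within epididymal libraries were added after the data had been examined. Replicate numbers in the labels were checked for pairing, which the check did not settle, and the libraries were treated as unpaired.

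The labels call the libraries of a group biological replicates and say no more of how they relate, so p-values measure the spread between these libraries. Total counts of 2166152 to 14756858 per library leave little counting error for mmu-miR-101a-3p, while the 5p rows hold few counts or 0.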

Additional observations from a re-analysis of the deposited data

How the results depend on the processing

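The calls on mmu-miR-101a-3p between tissues depended on scaling; the cause was not tested. Between seasons it was called under 0 of the alternatives, and the sign of its uncalled difference turned without 1 library in testis and in cauda. By library total its tissue differences (log2) were 0.80 (testis minus caput, now past the threshold), 0.59 (testis minus cauda, past it) and -0.20 (caput minus cauda, reversed), and that of mmu-miR-101b-3p for caput minus cauda reversed to -0.23. Testis minus cauda of mmu-miR-101a-3p also passed with DESeq2 size factors (0.53), with DESeq2 (0.53) and with the averaged columns kept (0.78). Without mmu-miR-101c, testis minus caput was -0.0022. Differences of its season change between tissues turned sign for testis minus caput (0.17 by library total, 0.046 with DESeq2 size factors, 0.046 with DESeq2, 0.11 without mmu-miR-101c), testis minus cauda (0.11 by library total, 0.15 with averaged columns kept) and caput minus cauda (0.015 without mmu-miR-101c, 0.0046 with all libraries in 1 fit).

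Counts of calls also moved. DESeq2 called 24, 15 and 53 miRNAs between the seasons in testis, caput and cauda, and 12, 21 and 15 for the differences of season changes. With averaged columns kept, edgeR called 9 and 3 in testis and caput and 6, 2 and 1 for those differences; with all libraries in 1 fit it called 1 in testis, 0 in cauda, 1 for testis minus cauda of the season changes and 74 for caput minus cauda. The cauda season count was 1 with no filter and 4 without all miR-101 rows. By library total, 1 miRNA was called for testis minus caput of the season changes.

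Leaving out 1 library at a time gave 0 to 24 calls between the cauda seasons and 0 to 2, 0 to 3 and 0 to 1 for the differences of season changes. For mmu-miR-101a-3p it gave season differences of -0.40 to 0.050 in testis, -0.51 to -0.042 in caput and -0.37 to 0.067 in cauda, and -0.30 to 0.34, -0.20 to 0.066 and -0.24 to 0.15 for their differences between tissues. Testis minus cauda was 0.18 to 0.40, and the season difference of mmu-miR-101b-3p was -0.71 to 0.11 in caput and -0.88 to -0.029 in cauda. The ratio of mmu-miR-101b-3p to mmu-miR-101a-3p differed by -0.12 to 0.073 (log2) for caput minus cauda.

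With a replicate block, edgeR called 0 miRNAs between the cauda seasons, 161 for testis minus cauda and 76 for caput minus cauda, and the testis season difference of mmu-miR-101b-3p was 0.0090. Same-numbered libraries correlated at over 0.1 in 1 of 7 season pairs and 5 of 15 tissue pairs. The tissue pairs ran from -0.024 to 0.26, too weak and too few to settle whether a number marks the same animal. The main fits and the ratio tests treated the libraries as unpaired, and the block changed no call on mmu-miR-101a-3p.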
